A study of Mus musculus with 8 samples.

Results

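The Notch genes described here are 3 receptors (Notch1, Notch2 and Notch3), 3 ligands (Jag1, Jag2 and Dll1) and 4 genes that Notch signalling is known to switch on (Hes1, Hey1, Heyl and Nrarp). They were chosen by gene symbol from the deposited table, where all 10 were present among 53801 genes, and all 10 passed the expression filter that left 16354 genes for testing. RNA came from CD45-CD31- stromal cells of the small intestine of LTβRYFP mice, sorted by FACS into cells with YFP (YFP+, 4 libraries) and without it (YFP-, 4 libraries). CD45 marks blood cells and CD31 marks endothelium, so both fractions had been gated against those cells. The labels give the genotype only as YFP+ or YFP-, and state neither what drives YFP, nor age or sex, nor whether animals were pooled. Since no label says that each library is a different animal, the spread behind the p-values may be technical.

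The labels disagree on the sign. In all 8 samples the title names one fraction while the description and genotype name the other, and the groups used here follow the description, the genotype and the column names of the table. If the titles are correct, each direction below is reversed. Library totals ran from 23272858 to 29829232 counts. The sorted cells carried fibroblast RNA, with Col3a1 between 14757 and 20745 CPM (counts scaled to a common library total) and Pdgfra between 877 and 1183 CPM in the 8 libraries. Ptprc, which encodes CD45, reached at most 6.22 CPM and Pecam1, which encodes CD31, at most 11.8 CPM. Some other markers of those cells were higher. The blood markers, summed over 11 genes, reached 324 CPM in YFP+ replicate 1 and 280 CPM in YFP- replicate 1. Endothelial Tek reached 61.0 CPM in YFP- replicate 4, Vwf 15.1 CPM in YFP+ replicate 3 and Plvap 13.3 CPM in YFP- replicate 1. The endothelial markers Cdh5, Kdr, Tie1, Esam, Emcn, Egfl7, Lyve1 and Prox1 reached at most 3.64 CPM in any library.

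Notch receptors are single-pass membrane proteins that bind Jagged or Delta-like ligands on a neighbouring cell. Ligand binding exposes the receptor to ADAM proteases and then to gamma-secretase, and the freed intracellular part joins the DNA-binding protein RBPJ and Mastermind-like co-activators in the nucleus. In the gut, Notch signalling is best known for keeping crypt progenitors from the secretory fate, and NOTCH3 for its place in vascular smooth muscle and pericytes.

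Measured per kilobase of annotated exon, the targets and receptors differed widely in level, as the plot of levels per exon length shows. Hes1 led with 108 CPM per kb over the 8 libraries (range 82.7 to 148). Notch2 followed at 13.6 (12.1 to 15.6) and Dll1 at 10.2 (7.81 to 13.5), and the ranges of this pair overlapped. Next came Notch1 at 4.13 CPM per kb (3.42 to 5.02) and Jag1 at 3.16 (2.36 to 4.51), overlapping each other but not Dll1. Jag1 overlapped Hey1 at 1.89 (1.41 to 2.56), and Hey1 overlapped Heyl at 1.81 (1.15 to 2.71). Notch3 (0.413), Jag2 (0.291) and Nrarp (0.222) were lowest, and their ranges overlapped one another. Exon lengths are the union of all annotated transcripts, which lowers the value of a gene with long rare isoforms.

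**Figure D1:**
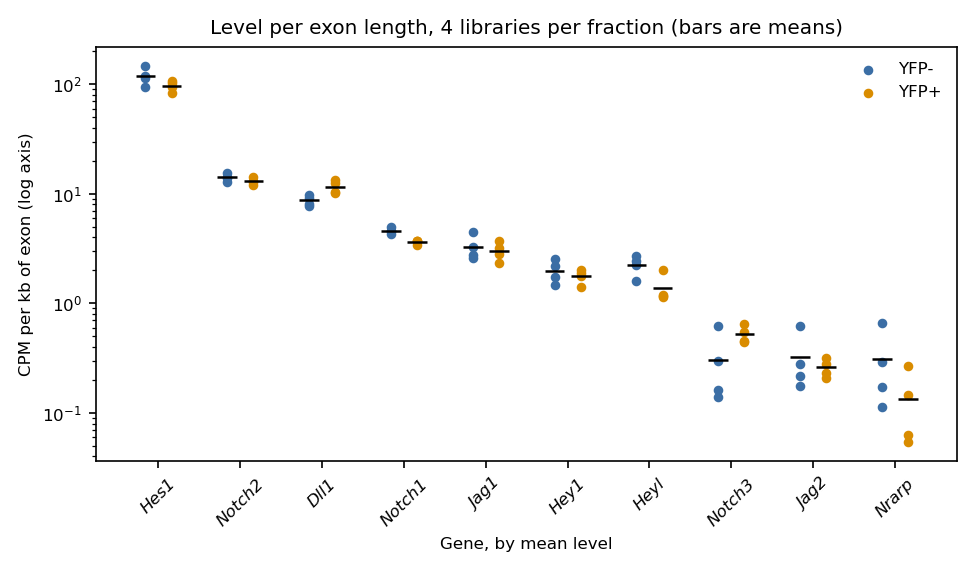
Levels of the 10 Notch genes in CPM per kb of exon (log axis), with 1 point per library, YFP- in blue and YFP+ in orange, and bars for the means of 4 libraries. Hes1 lies far above the rest and Notch3, Jag2 and Nrarp lie below 0.669 CPM per kb in each library.

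Between the fractions, Dll1 rose in YFP+ and Notch1, Hes1 and Heyl fell, while Notch2, Notch3, Jag1, Jag2, Hey1 and Nrarp did not pass the test. That is 4 of 10 genes called, where 11.5% of all tested genes were called. In the higher direction it was 1 of 10 beside 3.65% of all genes, and in the lower direction 3 of 10 beside 7.85%. The median log2 fold change was -0.15 over the 10 Notch genes and 0.01 over all genes tested. Calls are adjusted p-values under 0.05 from edgeR's quasi-likelihood test, with equal replicate numbers taken as pairs and with adjustment over all genes tested. Without the replicate block Notch1 alone was called, 1 of 10 lower beside 3.34% of all genes and 0 of 10 higher beside 0.917% (4.26% in either direction). In that higher direction 1 gene, Dll1, had an unadjusted p under 0.05. In bulk RNA, fewer cells of a type and less RNA per cell cannot be told apart.

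**Figure D2:**
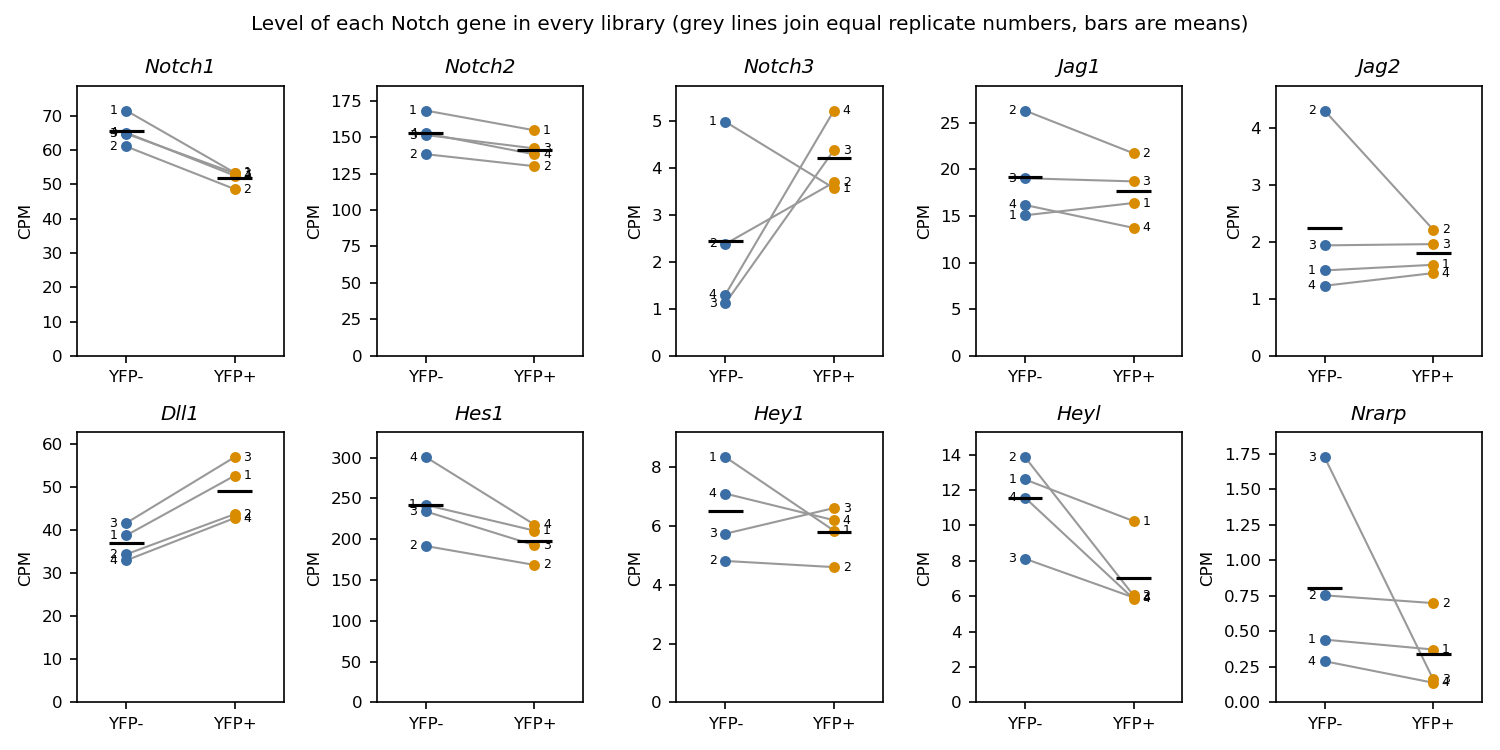
CPM of each Notch gene in every library, with YFP- in blue, YFP+ in orange, grey lines joining libraries of the same replicate number, and black bars at the group means. Dll1 rises along all 4 lines, and Notch1, Notch2, Hes1, Heyl and Nrarp fall along all 4.

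The receptors come first. Notch1 (ENSMUSG00000026923) is at chromosome 2, 26457903 to 26516663, minus strand, on the GRCm38 build. Its CPM values were 53.4, 48.6, 53.2 and 52.5 in YFP+ replicates 1 to 4 and 71.5, 61.1, 64.8 and 65.1 in the YFP- libraries of the same numbers. All 4 YFP+ libraries lay below all 4 YFP- libraries, which held for 5.86% of tested genes. Means were 51.9 ± 2.25 and 65.6 ± 4.34 CPM (SD, n = 4 each). The fitted change was -0.34 on the log2 scale (SE 0.07, edgeR adjusted p = 0.00165), so that Notch1 fell by 20.8%. The call held in each of the 12 alternative settings run.

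Notch2 (ENSMUSG00000027878, chromosome 3, 98013527 to 98150361, plus strand) was the most abundant receptor. It had 155, 130, 142 and 138 CPM in YFP+ replicates 1 to 4 and 168, 138, 151 and 153 CPM in YFP-. Each YFP+ library was below its same-numbered partner, but the groups overlapped, and the drop of 0.11 on the log2 scale (95% interval -0.23 to 0.0047) did not pass (edgeR adjusted p = 0.245). Notch2 made up 72.4% to 76.4% of the summed per-kb level of the 4 Notch receptors in each library. Notch1 made up 20.0% to 21.2% of it in YFP+ and 23.3% to 24.3% in YFP-, with no overlap. The change of Notch1 was lower than that of Notch2 by a mean of 0.22 on the log2 scale over the pairs, in 4 of 4 pairs. An exact two-sided sign-flip test over the pairs gave p = 0.125 (0.167 adjusted over 4 such comparisons), and 0.125 is the smallest p that 4 pairs allow.

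Notch3 (ENSMUSG00000038146, chromosome 17, 32120820 to 32166852, minus strand) was scarce and uneven. In YFP+ replicates 1 to 4 its values were 3.58, 3.70, 4.39 and 5.23 CPM, against 4.99, 2.39, 1.12 and 1.31 CPM in YFP-. The YFP+ libraries were alike, whereas YFP- replicate 1 was above 3 of them and YFP- replicates 3 and 4 were lowest. The fitted log2 fold change was 1.00 (95% interval 0.21 to 1.78, edgeR adjusted p = 0.101), which did not pass. Without the pair numbered 1 it was 1.52 with an edgeR adjusted p of 0.00984, and with no expression filter 1.01 with 0.0284. It shrank to 0.68 without the pair numbered 3 (edgeR adjusted p = 0.42) and to 0.66 without the pair numbered 4 (0.409). Without the replicate block it was 0.79 (edgeR adjusted p = 0.382). Pericytes express Notch3, and of 8 tested mural markers 2 were higher and 2 lower in YFP+, beside a summed level of 1528 to 1730 CPM in YFP+ against 1377 to 1500 CPM in YFP-. Of the defining mural markers, Rgs5 (log2 fold change 0.09), Kcnj8 (0.41) and Abcc9 (0.03) did not pass and none was at 0. Smooth muscle markers were higher for 9 of 10, with sums of 606 to 1160 CPM in YFP+ against 390 to 692 CPM in YFP-. Of all tested genes 3.65% were called higher and 7.85% lower. The part of mural and smooth muscle cells in the Notch3 values was not tested.

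Among the ligands, Dll1 rose. Dll1, a Delta-like ligand (ENSMUSG00000014773, chromosome 17, 15367354 to 15376872, minus strand), had 52.6, 43.7, 56.9 and 42.8 CPM in YFP+ replicates 1 to 4 and 38.7, 34.3, 41.6 and 32.9 CPM in YFP-. The groups did not overlap, as for 3.78% of tested genes in this direction, and replicates 1 and 3 were the higher libraries in both fractions. Means were 49.0 ± 6.89 and 36.9 ± 3.98 CPM (SD, n = 4 each). The fitted change was 0.40 on the log2 scale (SE 0.08, edgeR adjusted p = 9.42e-04), or 1.32-fold. Without the replicate block the value was 0.41 and the edgeR adjusted p 0.0552, just short of the threshold.

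Jag1, a Jagged ligand (ENSMUSG00000027276, chromosome 2, 137081456 to 137116644, minus strand), had 16.4, 21.7, 18.7 and 13.7 CPM in YFP+ replicates 1 to 4 and 15.1, 26.3, 19.0 and 16.2 CPM in YFP-. The fractions interleaved, and replicate 2 was highest in both. The log2 fold change was -0.11 (95% interval -0.35 to 0.13, edgeR adjusted p = 0.65). Jag2 (ENSMUSG00000002799, chromosome 12, 112907819 to 112929776, minus strand) lay between 1.46 and 2.22 CPM in the YFP+ libraries, and between 1.23 and 4.31 CPM in the YFP- ones, the highest again in replicate 2. Its log2 fold change was -0.16 (95% interval -0.94 to 0.61, edgeR adjusted p = 0.851), and it turned to 0.12 without the pair numbered 2. Of the summed per-kb level of Jag1, Jag2, Dll1, Dll3 and Dll4, Dll1 held 75.2% ± 3.23 in the YFP+ libraries against 67.9% ± 6.09 in the YFP- ones (SD, n = 4 each), and Jag1 19.7% ± 3.82 against 25.3% ± 5.31. The change of Dll1 exceeded that of Jag1 by a mean of 0.51 on the log2 scale, in 4 of 4 pairs (exact two-sided sign-flip p = 0.125, adjusted 0.167). With 4 pairs no smaller p was possible, so this test could not decide.

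The promoters of the 3 ligands are shown because 1 of these genes rose and 2 did not. Each runs from 250 bases before a RefSeq start site to 30 bases after it, 5′ to 3′ on the gene's strand (minus for all 3), from GRCm38.p6. Capitals mark CACGCG or its reverse complement CGCGTG, the class C site that HES proteins bind.
Dll1, chr17:15376903-15377182: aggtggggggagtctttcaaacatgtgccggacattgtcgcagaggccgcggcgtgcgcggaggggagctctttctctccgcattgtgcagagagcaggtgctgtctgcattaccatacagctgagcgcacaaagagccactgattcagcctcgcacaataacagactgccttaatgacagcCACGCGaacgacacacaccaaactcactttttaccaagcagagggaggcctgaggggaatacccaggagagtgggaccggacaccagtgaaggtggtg
Jag1, chr2:137116491-137116770: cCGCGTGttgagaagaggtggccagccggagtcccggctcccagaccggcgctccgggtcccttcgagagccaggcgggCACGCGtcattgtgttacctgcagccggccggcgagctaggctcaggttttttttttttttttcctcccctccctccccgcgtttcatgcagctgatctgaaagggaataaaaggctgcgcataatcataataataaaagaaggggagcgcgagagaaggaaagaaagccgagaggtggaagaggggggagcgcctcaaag
Jag2, chr12:112929466-112929745: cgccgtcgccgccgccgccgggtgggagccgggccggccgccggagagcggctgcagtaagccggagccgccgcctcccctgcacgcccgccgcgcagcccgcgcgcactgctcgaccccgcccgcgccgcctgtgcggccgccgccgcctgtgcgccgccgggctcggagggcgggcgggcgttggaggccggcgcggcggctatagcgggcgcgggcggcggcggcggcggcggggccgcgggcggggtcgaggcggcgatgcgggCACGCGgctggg
All 3 ligands had a promoter window with the letters. They begin 68 bases before the start site in Dll1, 249 and 171 bases before it in Jag1, and 18 bases after it in Jag2, so a window of each ligand held the match, the one that rose and the pair that did not pass alike. The Dll1 window with the match lies wholly before the GENCODE gene and does not end in a GENCODE transcript of it, and the window of the other RefSeq start, inside the gene, held none. The RefSeq promoter table matched 7 Notch genes (Notch1, Notch2, Notch3, Jag1, Jag2, Dll1 and Nrarp), with 8 windows. Of these 7 genes, 4 held CACGCG on either strand in at least 1 window. Counted by window and not by gene, 9.27% of all 32851 promoters of 300 bases did. The windows of the 7 genes had 55.7% to 86.0% G and C, and the median over all promoters was 52.7%, so base composition is not matched. TGGGAA, the core that RBPJ binds, was in none of their windows on either strand, and 25.6% of all promoters held it. CACGTG, an E-box that HEY proteins bind and a palindrome, was in the Nrarp window alone among the 7, and 7.15% of all promoters held it. Hes1, Hey1 and Heyl were not matched. These are matches of letters, not measured binding.

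The targets were lower or did not pass. Hes1, a basic helix-loop-helix repressor (ENSMUSG00000022528, chromosome 16, 30064384 to 30067796, plus strand), had 211, 169, 193 and 218 CPM in YFP+ replicates 1 to 4 and 242, 192, 234 and 301 CPM in YFP-. The groups overlapped, because replicate 2 was low and replicate 4 high in both fractions, but each YFP+ library was below its partner. The fitted change was -0.28 on the log2 scale (SE 0.06, edgeR adjusted p = 0.00101), and Hes1 fell by 17.8%. Without the replicate block the fitted change was -0.29 and the call was lost (edgeR adjusted p = 0.256).

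Heyl, a HEY-family repressor known from vascular smooth muscle (ENSMUSG00000032744, chromosome 4, 123233556 to 123249875, plus strand), showed the largest fall among the called genes. It had 10.2, 6.05, 5.93 and 5.86 CPM in YFP+ replicates 1 to 4 and 12.6, 13.9, 8.12 and 11.6 CPM in YFP-. YFP+ replicate 1 overlapped the YFP- range, and the other 3 YFP+ libraries were close together below it. Means were 7.02 ± 2.15 and 11.5 ± 2.46 CPM (SD, n = 4 each). The fitted change was -0.73 on the log2 scale (SE 0.18, edgeR adjusted p = 0.0056). The edgeR adjusted p was 0.0837 without the replicate block, 0.0634 without the pair numbered 2 and 0.0569 without the pair numbered 4.

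Hey1, the other HEY factor of the set (ENSMUSG00000040289, chromosome 3, 8663359 to 8667256, minus strand), covered 4.61 to 6.62 CPM over the YFP+ libraries and 4.82 to 8.35 CPM over the YFP- ones, with a log2 fold change of -0.14 (95% interval -0.57 to 0.28, edgeR adjusted p = 0.741). The change of Hes1 was above that of Heyl by a mean of 0.45 on the log2 scale in 4 of 4 pairs (exact two-sided sign-flip p = 0.125, adjusted 0.167). Here too 4 pairs allowed no smaller p, so the test could not decide. The change of Hes1 differed from that of Hey1 by -0.14 with both signs among the pairs (exact two-sided sign-flip p = 0.5). Nrarp, a Notch-induced feedback inhibitor (ENSMUSG00000078202, chromosome 2, 25180758 to 25183339, plus strand), was near the limit of detection with 4 to 40 counts per library. Its values were 0.372, 0.699, 0.164 and 0.139 CPM in YFP+ replicates 1 to 4 and 0.442, 0.754, 1.73 and 0.290 CPM in YFP-. The low fitted value of -1.13 (95% interval -2.74 to 0.47, edgeR adjusted p = 0.423) leans on replicate 3, where YFP- was 1.73 CPM, and was -0.42 without that pair.

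**Figure D3:**
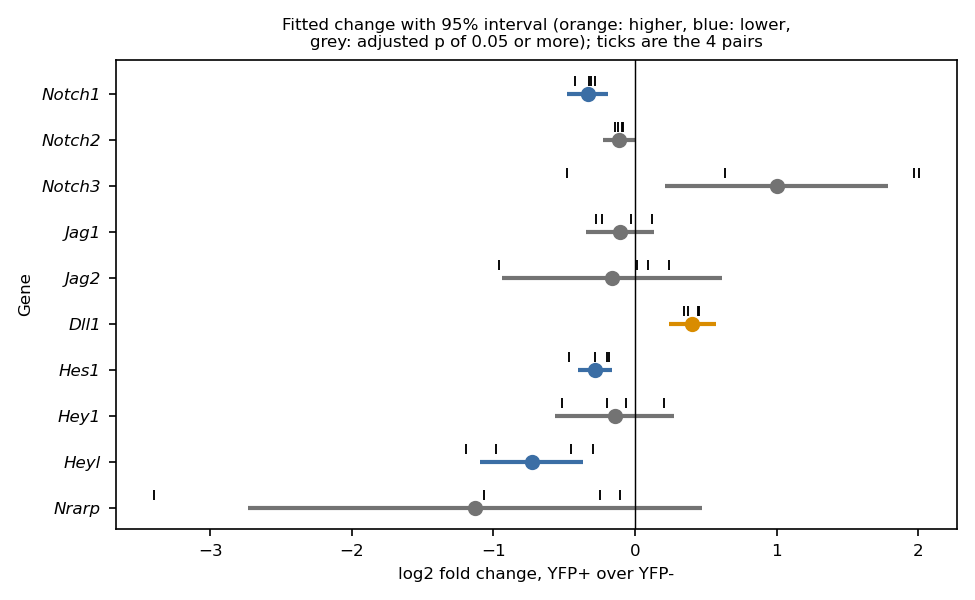
Fitted log2 fold change of YFP+ over YFP- for each Notch gene (point) with its 95% interval (line), orange for higher, blue for lower and grey for not called, and small ticks for the 4 pairs. The intervals of Notch3, Jag2 and Nrarp are the widest, from 0.21 to 1.78 for Notch3.

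Over the set, 5 of 10 genes were lower in all 4 pairs (16.2% of tested genes were) and 1 of 10 was higher in all 4 (14.0% of tested genes were). In the authors' deposited table Dll1 had a log2 fold change of 0.413, Notch1 -0.328, Hes1 -0.276 and Heyl -0.723. Adjusted p-values for these in the authors' deposited table were 2.69e-04, 0.00162, 3.36e-04 and 0.0115. The authors' deposited table gave 0.109 or more for the other 6, and 9.36% of its genes with an adjusted p were under 0.05. These values rest on the same counts and are not independent.

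Some exons are shared with other genes, and the strand setting of the counting is not given in the sources used here. Nrarp shares 79.4% of its exonic bases with Gm38287 on the opposite strand, which had at most 0.796 CPM. Dll1 shares 20.5% with the lincRNA A930024N18Rik on the opposite strand (at most 2.26 CPM). Notch1, Notch2 and Notch3 share between 2.91% and 7.50% with any 1 other gene. The Nrarp count in particular is uncertain for this reason.

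Of 56 further genes of the pathway, 51 were tested, 2 rose and 5 fell, with a median log2 fold change of -0.03. That is 2 of 51 beside 3.65% of all genes and 5 of 51 beside 7.85%, and without the replicate block edgeR called 1 higher and 0 lower, with 6 lower at an unadjusted p under 0.05. Among the other receptors and ligands, Dner, a Delta- and Notch-like receptor of neural cells, was the 1 of 4 that fell (15.0 ± 4.27 CPM in YFP+ against 24.6 ± 3.72 CPM in YFP-, SD, n = 4 each). Its log2 fold change was -0.74 (edgeR adjusted p = 1.69e-04, or 0.0509 without the block). Notch4 (0.08), Dll3 (-0.33) and Dll4 (0.07) did not pass and averaged at most 2.31 CPM in either fraction.

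Of the nuclear complex and its co-repressors, 3 of 16 fell and 0 rose by edgeR, beside 7.85% and 3.65% of all genes. DESeq2 called 3 lower and limma-voom 4, and each called 0 higher. At an unadjusted edgeR p under 0.05, 3 were higher. Maml2 and Maml3, the Mastermind-like co-activators, had log2 fold changes of -0.42 (edgeR adjusted p = 0.016) and -0.29 (0.00214), and the co-repressor Tle1 -0.25 (0.0302). Without the block none of these 3 passed (edgeR adjusted p = 0.0525, 0.408 and 0.282), and Tle1 also lost its call without the pair numbered 2, 3 or 4. Rbpj itself, named here after its values were seen, was at -0.07 (edgeR adjusted p = 0.584).

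By edgeR, DESeq2 and limma-voom 0 of 10 genes of receptor cleavage passed, with 1 at an unadjusted p under 0.05. Adam10, the sheddase of the receptors and the most abundant of them per kilobase, averaged 114 ± 4.69 CPM in YFP+ against 109 ± 6.47 CPM in YFP- (SD, n = 4 each). By the same 3 tools 0 of 5 glycosylation genes passed, with 1 at an unadjusted p under 0.05, and Pofut1, which adds O-fucose to Notch, was at -0.03. Of 13 genes of ubiquitylation and trafficking, 2 rose and 1 fell, beside 3.65% and 7.85% of all genes. Dtx4 (log2 fold change 0.28, edgeR adjusted p = 6.81e-04) and Dtx3l (0.22, 0.0317) rose. Fbxw7, the ubiquitin ligase subunit that marks the cleaved receptor for breakdown, fell (-0.21, 0.036). Dtx3l and Fbxw7 lost their calls without any 1 pair and without the block, and Fbxw7 also with no filter and with DESeq2. Of 3 tested HES and HEY relatives 0 passed by edgeR with the main filter or by limma-voom, 1 had an unadjusted edgeR p under 0.05, and DESeq2 and edgeR with a filter of 1 CPM in 4 libraries each called 1. Hes6, the most abundant of them per kilobase, was at 0.45 on the log2 scale (edgeR adjusted p = 0.244). Hey2, named after its values were seen, averaged 0.950 CPM in YFP+ against 2.25 CPM in YFP-. The groups did not overlap, as for 5.86% of tested genes in this direction. Hey2 was the gene called in those settings (log2 fold change -1.36, edgeR adjusted p = 0.0556, or 0.0425 with that filter, and DESeq2 adjusted p = 0.0299). Its edgeR adjusted p was 0.175 without the block and ran from 0.0744 to 0.235 without each pair in turn. The log2 fold change was -0.96 without the pair numbered 2, and the lowest count of Hey2 in a library was 7.

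**Figure D4:**
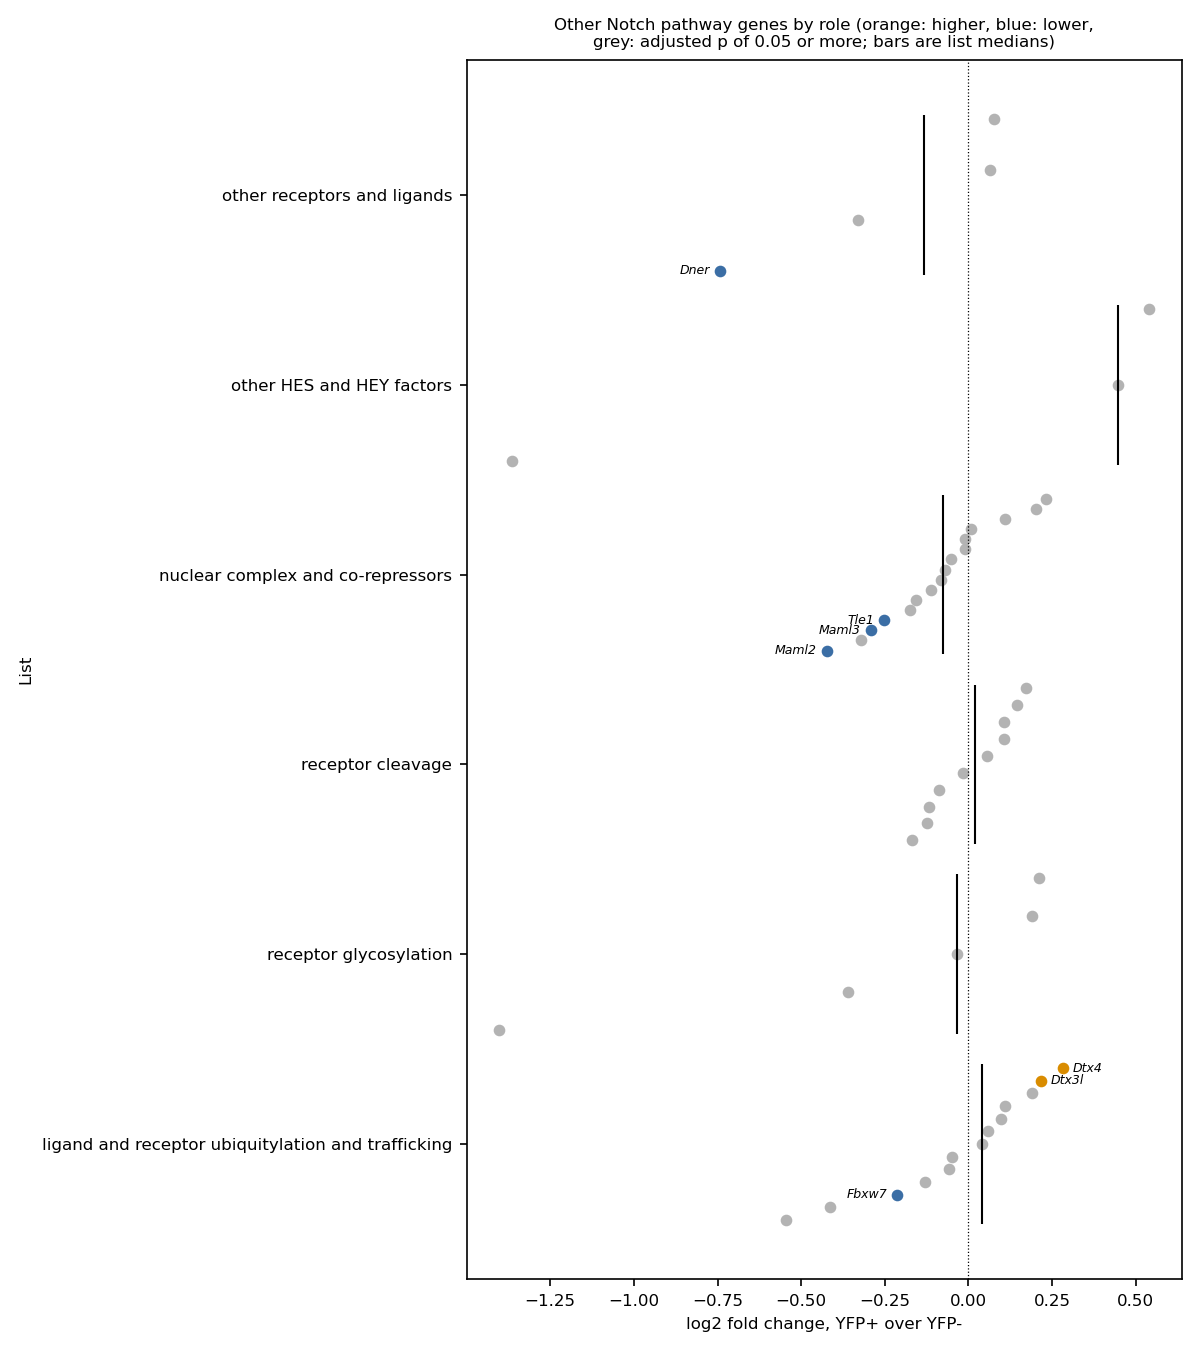
Log2 fold change of YFP+ over YFP- for 51 other Notch pathway genes, by role, with 1 point per gene (orange for higher, blue for lower, grey for not called) and a bar at each list's median. Receptor cleavage genes lie between -0.17 and 0.17, and the called genes are written beside their points.

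Several lists of markers of other cells differed between the fractions, and their part in these results was not tested. Sums overlapped for enteric neuron markers (6.63 to 9.38 CPM in YFP+ against 5.61 to 23.7 CPM in YFP-). Interstitial cell of Cajal sums did too (43.0 to 48.9 against 29.3 to 49.6 CPM), as did blood sums (40.5 to 324 against 74.9 to 280 CPM). Smooth muscle sums, given with Notch3, also overlapped, though 9 of 10 of those markers rose. Of all tested genes 7.85% were called lower and 3.65% higher. Enteric glia markers fell for 8 of 9, with sums of 8.18 to 10.2 CPM in YFP+ against 107 to 173 CPM in YFP-, and the defining Sox10 and S100b averaged 2.76 and 0.756 CPM in YFP+. Epithelial markers fell for 6 of 13 (24.4 to 28.4 CPM against 49.5 to 102 CPM). The defining Epcam (log2 fold change -2.59, edgeR adjusted p = 0.0539) and Vil1 (-0.66, 0.117) leaned the same way but were not called. Endothelial markers fell for 3 of 10 (49.8 to 61.1 against 68.5 to 98.6 CPM), with the defining Pecam1 among them and the defining Cdh5 not called (log2 fold change -0.47, edgeR adjusted p = 0.662). Much of these sums was Tek alone, at 21.8 to 33.0 CPM in YFP+ against 37.3 to 61.0 CPM in YFP-. Tie1 (log2 fold change 0.50), Prox1 (0.38), Vwf (0.30) and Esam (0.25) leaned the other way without a call. Of the fibroblast markers 5 of 6 fell (33838 to 37646 against 39137 to 46222 CPM). Early-response genes, which tissue dissociation can induce, fell for 14 of 15, with sums of 9140 to 9692 CPM in YFP+ against 11638 to 13876 CPM in YFP-. YFP- replicate 4 had the highest sum and also the highest Hes1 (301 CPM). Within YFP+, replicate 4 also had the highest sum (9692 CPM) and the highest Hes1 (218 CPM). Replicate 2 of YFP+ had the lowest Hes1 (169 CPM) but a sum of 9679 CPM. Any link between Hes1 and this sum was not tested. The mitochondrial share of counts was 4.13% to 4.86% in YFP+ and 5.20% to 7.38% in YFP-.

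**Figure D5:**
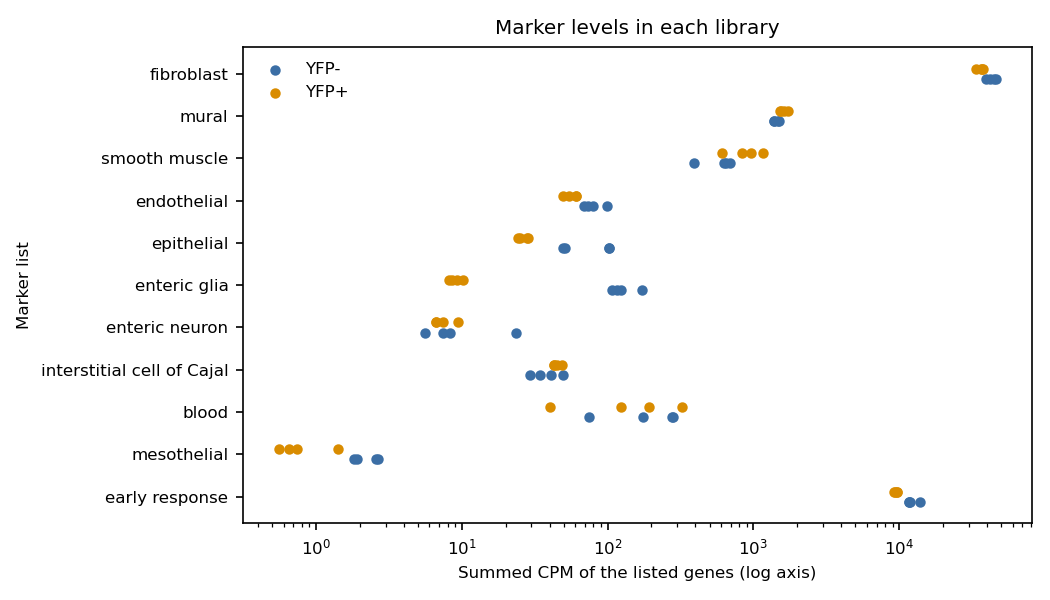
Summed CPM of each marker list (log axis), with 1 point per library, YFP- in blue and YFP+ in orange. Glial, epithelial, endothelial, mesothelial, fibroblast and early-response sums are lower in every YFP+ library than in any YFP- library, and mural sums are higher.

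The genes whose pattern over the 8 libraries was most like that of Dll1 and of Heyl were found by the root mean square difference of centred log2 CPM among 8658 genes. For Dll1, whose own spread by this measure was 0.255, they were Vcan (0.0499), a matrix proteoglycan, Neurl3 (0.0813) and Col18a1 (0.0814), a basement membrane collagen. Vcan averaged 576 ± 78.7 CPM in YFP+ against 454 ± 53.6 CPM in YFP- (SD, n = 4 each). For Heyl, with a spread of 0.484, they were Dhrs3 (0.197), a retinal reductase, Col20a1 (0.226) and Ampd3 (0.237), an AMP deaminase. Dhrs3 averaged 34.5 ± 4.41 CPM in YFP+ against 54.4 ± 13.7 CPM in YFP- (SD, n = 4 each). The libraries share their pairing and totals, so such likeness is a description.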

How the data were processed

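The submitters' processing notes name GRCm38 (mm10) and list featureCounts 2.0.1, STAR 2.7.3a, cutadapt 3.4 and DESeq2. Per the labels' protocols the kit was stranded, for total RNA of very small input. The authors deposited 1 table of unnormalised counts, with 1 column per library, and the authors' log2 fold changes and adjusted p-values. Its 8 normalised columns were not used.

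Counts were tested in R 4.3.3 with edgeR 4.0.16 (TMM scaling, filterByExpr by group, robust quasi-likelihood F test, replicate number as a block, Benjamini-Hochberg at 0.05). CPM use TMM-scaled totals. The SE is the absolute log2 fold change over the square root of F, and intervals are 95%. The test was first tried on simulated paired counts.

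Equal replicate numbers were taken as pairs. Over 5200 genes, deviations from group means correlated at 0.38 to 0.64 within numbers and at -0.42 to 0.05 between them. Each fraction was centred on its own mean, so the deviations of a gene cancel within it. Positive values within numbers therefore push those between numbers down, and part of the gap is built in. No label says what a number shares. Refitted with number and group, DESeq2 1.42.0 came within 5e-04 of every deposited log2 fold change. Without the number the median difference was 0.0499. Replicates differed by more than sampling noise (chi-square per degree of freedom of 20.8 or more).

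The Notch genes and all lists were chosen with earlier results of these data known. Named genes are the 10, up to 3 called genes per direction in each pathway list or else its most abundant gene, the defining markers, and the 3 genes most alike to the called gene of largest change in each direction (mean of at least 10 CPM). In the enteric glia list 1 marker is not reported here and is left out of its count and sum. Exon lengths and overlaps are from GENCODE M21 (GRCm38), promoters from RefSeq (GRCm38.p6). Alternatives were no block, upper-quartile and relative log expression scaling, testing without a filter, 1 CPM in 4 libraries, DESeq2, limma-voom (limma 3.58.1), leaving out ribosomal RNA and mitochondrial genes, and removal of each pair. A library left alone in its block adds nothing, so both libraries of a number were removed together.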

Additional observations from a re-analysis of the deposited data

Results flagged for a closer look

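Among 20 sets of 4 values (10 Notch genes in 2 fractions), 1 held a library far from the other 3, and chance gives about 1 in 20. Heyl was high in YFP+ replicate 1 at 10.2 CPM, while the other YFP+ libraries lay between 5.86 and 6.05 CPM.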

How the results depend on the processing

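The pairing mattered most. With no replicate block, 0 Notch genes were higher and 1 lower, 1 other pathway gene was higher and 0 lower, and 150 genes of all were higher and 547 lower, where the paired test gave 597 and 1283. DESeq2 and limma-voom with the block gave 1 Notch gene higher and 3 lower, as edgeR did. With no filter 2 Notch genes were higher. Without each pair in turn, Notch genes higher ran from 1 to 2 and lower from 2 to 3, other pathway genes higher stayed at 1 and lower ran from 3 to 4, and all genes higher ran from 331 to 500 and lower from 851 to 1126. The lowest of the last pair of ranges came without replicate 3. Without each pair the log2 fold change of Jag2 ran from -0.29 to 0.12 and that of Pofut1 from -0.083 to 0.0088, both turning positive without replicate 2 only, and neither was called in any setting. The cause of these shifts was not tested, beyond fewer libraries in the last settings. Counting error is widest for Nrarp, which had the fewest counts of the 10 genes (4 to 40 per library) and was not tested under the filter of 1 CPM in 4 libraries.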
